A study of Mus musculus with 12 samples.

Results

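BCR-ABL1, the oncogene made by the Philadelphia translocation, joins the start of BCR to the tyrosine kinase ABL1. The transcripts examined were those of the mouse genes that give the fusion its name, Bcr and Abl1, with the second ABL kinase gene Abl2 and 7 genes of proteins that bind the fusion or carry its signal to RAS: Gab1, Gab2, Grb2, Crkl, Shc1, Sos1 and Cbl. These 10 genes were chosen by name for their place in the pathway, with earlier results of these data known. They make up 10 of the 51826 genes in the count table. All 10 passed the filter on low counts and were tested, as were 15038 genes in all. RNA of 12 pro-/pre-B cell lines from the bone marrow of 2 C57BL/6 mice was sequenced as stranded total RNA. After 7 days in medium with interleukin 7 (IL7), the growth factor of B cell precursors, cells of each mouse were transduced to give 3 lines with the empty vector pMIG (EV) and 3 lines with BCR-ABL1. All lines kept IL7 for a further 48 h. The 6 BCR-ABL1 lines were then grown without IL7 for 1 week, while the 6 EV lines stayed in IL7 and were sorted for GFP. IL7 withdrawal and BCR-ABL1 coincided in all lines, so that their effects cannot be told apart. Lines are named by mouse (1 or 2) and a letter (A to C), and the 3 lines of one mouse share that animal, so p-values measure the spread between lines of 2 mice.

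In cells that carry the fusion, a phosphorylated tyrosine in its BCR part binds the adaptor GRB2, which brings the RAS exchange factor SOS1 and the docking protein GAB2 to the kinase. GAB1 is a relative of GAB2, SHC1 is a further adaptor that is phosphorylated and bound by GRB2, and CRKL is a major substrate of the kinase. CBL is a ubiquitin ligase and adaptor that is also phosphorylated by it. The normal BCR protein holds a kinase domain and a domain that turns off RAC, and the normal ABL1 and ABL2 kinases act on the actin skeleton and, for ABL1, in the DNA damage response. The count table lists mouse genes and has no row of its own for the introduced fusion, and whether reads of the fusion were counted on Bcr or Abl1 was not tested.

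Promoter sequences are given for 4 members, the genes that give the fusion its name, Bcr and Abl1, the second ABL kinase gene Abl2, and Gab1, whose transcript was absent or nearly so in part of the lines. They run from 250 bases before to 50 bases after a transcription start of RefSeq on GRCm38.p6, and 9 of the 10 members had an entry. Bcr lies at chr10:75060646-75060945 on the + strand, Abl1 (the first of 2 starts) at chr2:31759689-31759988 on the + strand, Abl2 at chr1:156558537-156558836 on the + strand, and Gab1 (the first of 2 starts) at chr8:80880470-80880769 on the - strand. Both Abl1 starts lie inside the annotated gene, which begins upstream at chr2:31688376, and no window at that upstream end is given. Capitals mark matches on either strand to GGGCGG, the core of the GC box bound by SP1-family factors, and, in Gab1 alone of the 4, to TTCNNNGAA, the core bound by STAT factors.
Bcr: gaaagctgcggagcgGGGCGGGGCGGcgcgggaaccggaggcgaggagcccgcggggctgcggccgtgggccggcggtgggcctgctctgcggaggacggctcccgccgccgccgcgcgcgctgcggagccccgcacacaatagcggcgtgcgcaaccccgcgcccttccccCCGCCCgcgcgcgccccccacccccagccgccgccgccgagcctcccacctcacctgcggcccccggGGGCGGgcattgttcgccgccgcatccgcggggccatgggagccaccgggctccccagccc
Abl1: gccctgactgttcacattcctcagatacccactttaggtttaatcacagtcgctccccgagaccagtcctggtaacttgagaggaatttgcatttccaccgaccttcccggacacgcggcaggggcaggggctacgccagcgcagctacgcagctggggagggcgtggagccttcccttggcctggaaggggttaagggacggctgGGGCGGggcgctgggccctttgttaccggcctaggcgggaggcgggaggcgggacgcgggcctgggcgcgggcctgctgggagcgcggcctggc
Abl2: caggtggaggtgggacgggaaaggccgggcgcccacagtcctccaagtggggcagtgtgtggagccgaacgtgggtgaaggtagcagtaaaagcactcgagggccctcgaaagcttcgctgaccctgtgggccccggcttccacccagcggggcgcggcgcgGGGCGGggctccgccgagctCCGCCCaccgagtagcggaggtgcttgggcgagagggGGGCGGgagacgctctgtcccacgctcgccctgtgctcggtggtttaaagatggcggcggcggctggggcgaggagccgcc
Gab1: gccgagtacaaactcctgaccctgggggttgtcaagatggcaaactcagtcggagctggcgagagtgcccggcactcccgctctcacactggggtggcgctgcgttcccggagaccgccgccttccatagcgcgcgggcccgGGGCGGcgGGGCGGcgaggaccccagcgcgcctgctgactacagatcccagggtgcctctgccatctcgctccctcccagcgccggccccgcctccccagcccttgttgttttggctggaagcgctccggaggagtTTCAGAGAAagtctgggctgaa
The Bcr window held 4 matches to GGGCGG, of which the first 2 share 1 base, the Abl2 window 3, the Gab1 window 2 and the Abl1 window 1. GGGCGG was present in 35.7% of the 32851 RefSeq promoter windows of the same length, and TTCNNNGAA in 8.3%. CCAAT and TATAAA were also searched on both strands, are present in 37.4% and 13.6% of all windows, and were found in none of these 4. G and C made up 82.3% of the Bcr window against a median of 52.7% over all windows. A match describes letters in a window and does not say that a factor was bound.

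Total counts per line ranged from 34791011 to 66011225. The 10 genes with the most counts took 6.60% to 9.31% of the counts in 10 lines, and 15.2% and 13.7% in the EV lines 2A and 2B. All 8 B lineage markers were expressed in every line, with a summed level of 2514 to 4487 CPM (counts relative to the library's total, scaled by TMM). The summed level of 7 myeloid markers was 4.19 to 7.54 CPM, led by Cd68, and that of 6 T and NK cell markers 0.188 to 3.68 CPM. Mast, erythroid and stromal lists stayed at or below 1.07 CPM. In bulk RNA, fewer cells that use a gene and less RNA of it per cell cannot be told apart.

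Bcr was the only member called in the comparison of BCR-ABL1 with EV lines, and it was lower in the BCR-ABL1 lines. A gene was called when edgeR's quasi-likelihood test against a 1.5-fold change gave a Benjamini-Hochberg adjusted p (FDR) below 0.05 over all tested genes. By this rule 0 of the 10 members were higher (also 0 by unadjusted p and by DESeq2 and limma) and 1 was lower, where 5.99% of all tested genes were higher and 6.49% were lower. By the weaker test against no change 1 member was higher (Abl2) and 3 were lower (Bcr, Crkl and Sos1), where 22.5% and 25.9% of all genes were. The CPM of the 2 conditions did not overlap for 2 members, Bcr and Sos1, and for 25.6% of all tested genes. With 10 members, counts of 0 to 3 lie near what the shares of all genes give. The median log2 fold change of the members, -0.044, lay beside a median of -0.024 over all genes.

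Bcr (ENSMUSG00000009681, chr10:75060592-75184921, + strand) stood at 122, 110, 98.4, 119, 144 and 70.1 CPM in the EV lines 1A, 1B, 1C, 2A, 2B and 2C. In the BCR-ABL1 lines 1A to 2C it stood at 52.8, 48.8, 52.3, 39.7, 49.8 and 52.0 CPM. Every BCR-ABL1 line lay below every EV line, and the EV line 2C was the one nearest to them. The mean was 111 ± 25.0 CPM (SD, n = 6) in EV and 49.2 ± 4.93 CPM in BCR-ABL1 lines. Bcr thus fell by 1.17 on the log2 scale (SE 0.16, edgeR quasi-likelihood test against 1.5-fold, FDR = 0.00296), with a 95% interval by limma-trend of -1.46 to -0.82. The log2 fold change was -1.09 in the lines of mouse 1 alone (edgeR, FDR = 3.7e-05) and -1.22 in those of mouse 2 alone, where the call was lost (edgeR, FDR = 0.105). The test of the interaction of mouse and condition gave no call for Bcr (edgeR, FDR = 0.833).

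Abl1 (ENSMUSG00000026842, chr2:31688376-31804227, + strand), the normal gene of the kinase, was not called. It stood at 139, 117, 116, 119, 108 and 113 CPM in the EV lines 1A to 2C. In the BCR-ABL1 lines it stood at 128, 129, 133, 120.5, 140.0 and 140.0 CPM. The conditions overlapped through the EV line 1A, and the other 5 EV lines lay below all BCR-ABL1 lines. The log2 fold change was 0.15 (SE 0.061, edgeR against no change, FDR = 0.0720), and the 95% interval of 0.013 to 0.29 lay below a 1.5-fold difference.

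Abl2 (ENSMUSG00000026596, chr1:156558786-156649568, + strand), the relative of Abl1, was the one member higher by the test against no change. It stood at 75.5, 81.2, 77.7, 84.4, 84.1 and 120 CPM in the EV lines 1A to 2C. In the BCR-ABL1 lines it stood at 132, 126, 136, 105, 123 and 126 CPM. The EV line 2C lay within the range of the BCR-ABL1 lines, and the other 5 EV lines lay below all of them. The log2 fold change was 0.52 (SE 0.11, edgeR against no change, FDR = 0.00277, against 1.5-fold, FDR = 1) with a 95% interval of 0.29 to 0.76. In the lines of mouse 1 alone it was 0.76 and passed the test against 1.5-fold (edgeR, FDR = 0.00539), and in those of mouse 2 alone it was 0.30 and did not.

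**Figure D1:**
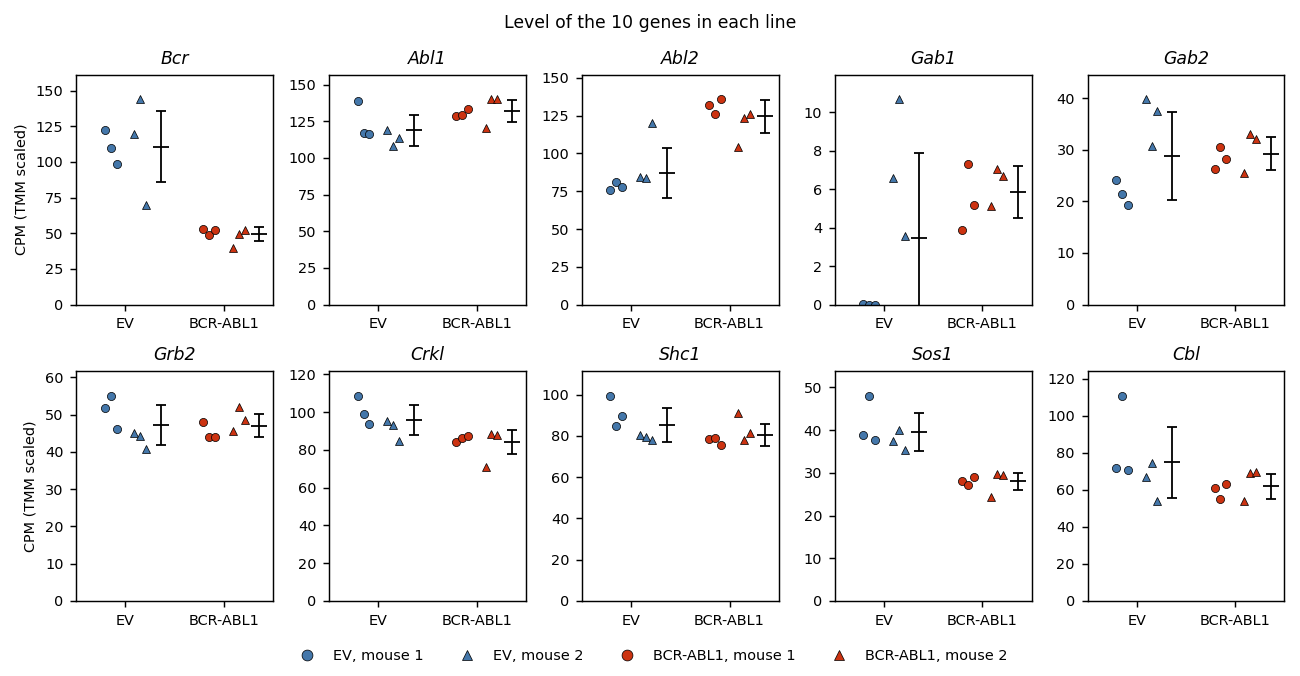
Level of each of the 10 genes in CPM, scaled by TMM, in the 6 EV lines (blue) and the 6 BCR-ABL1 lines (red). Circles are lines of mouse 1 and triangles lines of mouse 2, black marks are the mean and SD of 6 lines (the bar of EV in Gab1 runs below 0 and is cut there), each vertical axis starts at 0, and Bcr and Sos1 are the panels with no overlap.

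Gab1 (ENSMUSG00000031714, chr8:80764438-80880519, - strand), a docking protein of growth factor and cytokine receptors, differed between the EV lines of the 2 mice. It had 2, 0 and 0 counts in the EV lines 1A, 1B and 1C, and 215, 537 and 197 counts in the EV lines 2A, 2B and 2C. The BCR-ABL1 lines 1A to 2C had 229, 349, 228, 266, 464 and 321 counts. On the CPM scale the EV lines of mouse 2 stood at 6.6, 10.7 and 3.6 and the BCR-ABL1 lines at 3.9 to 7.3, so that these overlapped, while the EV lines of mouse 1 lay at or next to 0. In mouse 1 the mean of 5.45 CPM in BCR-ABL1 lines was at least 112-fold higher than a floor of 3 counts per line, 0.0486 CPM, in the EV lines. The difference of the BCR-ABL1 log2 fold change between the mice was -8.84 (mouse 2 minus mouse 1, edgeR interaction test, FDR = 5.1e-05). With 0 to 2 counts in the EV lines of mouse 1 its size is uncertain, and the floor gives only a lower bound there.

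Over all lines, Gab1 gave a log2 fold change of 0.76 with an SE of 1.61 (edgeR, FDR = 1), and the value changed with the fit. It was 2.91 with the mouse as a block (edgeR, FDR = 0.345), 3.15 with the line pair as a block (edgeR, FDR = 0.522), and 3.40 by limma-trend with a 95% interval of 0.25 to 6.55. In the lines of mouse 1 alone it was 8.73 (edgeR, FDR = 3.7e-07) and in those of mouse 2 alone -0.13. The value in mouse 1 rests on EV lines with 0 to 2 counts. T and NK cell markers also differed between the EV lines, at 0.188 to 0.322 CPM in mouse 1 and 0.938 to 1.59 CPM in mouse 2. Stromal markers stood at 0.0154 to 0.113 CPM in mouse 1 and 0.0361 to 1.07 CPM in mouse 2. Erythroid markers stood at 0.113 to 0.307 CPM and 0.289 to 0.828 CPM, so that both lists overlapped but reached higher in mouse 2. In the EV lines of mouse 1, 4 of the 6 T and NK markers and 4 of the 4 stromal markers had no more than 3 counts in any line, against 1 and 0 in those of mouse 2. In BCR-ABL1 lines 5 of the 6 T and NK markers had no more than 3 counts, and their sum, led by Klrb1c, was 1.09 to 3.68 CPM in mouse 1 and 0.374 to 0.639 CPM in mouse 2. Their part in the level of Gab1 was not tested.

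Gab2 (ENSMUSG00000004508, chr7:97081586-97308946, + strand), the docking protein that GRB2 brings to the fusion, had no overall difference past either test. It stood at 24.1, 21.3 and 19.4 CPM in the EV lines of mouse 1 and at 39.8, 30.7 and 37.5 CPM in those of mouse 2. The BCR-ABL1 lines 1A to 2C stood at 26.2, 30.5, 28.1, 25.5, 33.0 and 32.1 CPM. The BCR-ABL1 lines of mouse 1 lay above its EV lines with no overlap, whereas in mouse 2 the ranges overlapped. The log2 fold change was 0.40 in mouse 1 and -0.24 in mouse 2, and their difference of -0.64 passed the interaction test (edgeR, FDR = 0.0386). Gab1 and Gab2 were the 2 of 10 members with such a difference, which 16.9% of all tested genes had. In the lines of mouse 1 alone, 2 members were called higher (Abl2 and Gab1) and 1 lower (Bcr), where 16.3% and 12.2% of the genes tested in those lines were.

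Sos1 (ENSMUSG00000024241, chr17:80393751-80480453, - strand), the exchange factor that loads RAS with GTP, was lower in BCR-ABL1 lines by the test against no change. It stood at 38.8, 48.1, 37.6, 37.4, 40.0 and 35.3 CPM in the EV lines 1A to 2C. In the BCR-ABL1 lines it stood at 28.1, 27.1, 29.0, 24.3, 29.8 and 29.6 CPM. The conditions did not overlap. The log2 fold change was -0.50 (SE 0.077, edgeR against no change, FDR = 0.000505, against 1.5-fold, FDR = 1), with a 95% interval of -0.67 to -0.32.

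Crkl (ENSMUSG00000006134, chr16:17451987-17487434, + strand), the adaptor that is a main substrate of the fusion, was lower to a smaller extent. It stood at 109, 99.0, 93.8, 95.3, 93.1 and 84.7 CPM in the EV lines 1A to 2C. In the BCR-ABL1 lines it stood at 84.4, 86.1, 87.6, 71.1, 88.2 and 87.8 CPM. The EV line 2C lay among the BCR-ABL1 lines, and the other 5 EV lines lay above them. The log2 fold change was -0.19 (SE 0.069, edgeR against no change, FDR = 0.0456) with a 95% interval of -0.34 to -0.031.

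Grb2 (chr11:115644045-115708597, - strand), Shc1 (chr3:89418443-89430027, + strand) and Cbl (chr9:44142976-44234049, - strand) had overlapping conditions and passed neither test. Grb2, the adaptor that links the fusion to SOS1, stood at 51.8, 55.1, 46.2, 45.1, 44.2 and 40.7 CPM in the EV lines 1A to 2C and at 47.9, 44.0, 44.1, 45.7, 52.1 and 48.5 CPM in the BCR-ABL1 lines. For Grb2 the log2 fold change was -0.0044, with a 95% interval of -0.17 to 0.17. Shc1 ranged from 78.1 to 99.5 CPM in EV (median of the 6 lines 82.5) and from 75.5 to 90.9 CPM in BCR-ABL1 lines (median 78.8). Shc1 gave a log2 fold change of -0.085 (SE 0.066, edgeR against no change, FDR = 0.333). Cbl ranged from 54.0 to 111 CPM in EV lines, with 1B far above the others, and from 54.2 to 69.7 CPM in BCR-ABL1 lines. Cbl gave a log2 fold change of -0.27 (SE 0.15, edgeR against no change, FDR = 0.140) with a 95% interval of -0.55 to 0.065, so that a difference of that size could not be told from the spread.

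**Figure D2:**
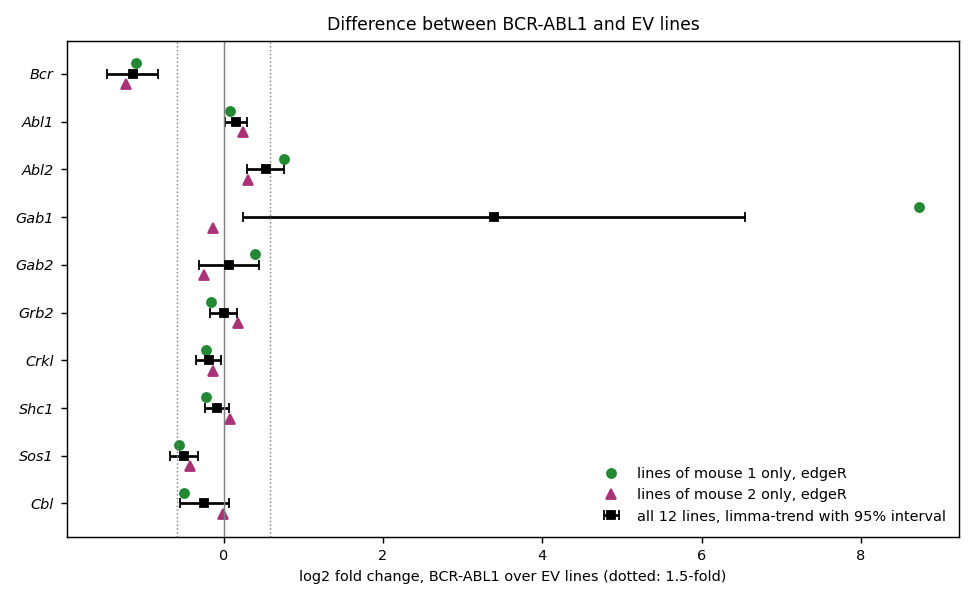
Log2 fold change of BCR-ABL1 over EV lines for the 10 genes. Black squares are limma-trend estimates over all 12 lines with 95% intervals, green circles and purple triangles are edgeR estimates in the lines of mouse 1 alone and mouse 2 alone, and dotted lines mark a 1.5-fold difference. The interval of Bcr, -1.46 to -0.82, lies wholly beyond a 1.5-fold decrease, and the estimates of Gab1 lie apart at 8.73 and -0.13.

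Levels can be compared between genes only per length, as CPM per kilobase of exon. In EV lines the order from high to low was Crkl (19.0 CPM per kilobase), Grb2 (16.2), Shc1 (15.1), Bcr (13.5), Abl1 (10.2), Abl2 (8.07), Cbl (6.06), Gab2 (4.67), Sos1 (3.73) and Gab1 (0.684). Of neighbours in this order, Sos1 and Gab1 were the pair whose ranges over the 6 lines did not overlap. In BCR-ABL1 lines the order was Crkl (16.7 CPM per kilobase), Grb2 (16.1), Shc1 (14.3), Abl2 (11.5), Abl1 (11.4), Bcr (6.01), Cbl (5.02), Gab2 (4.74), Sos1 (2.64) and Gab1 (1.15). Here the neighbours Shc1 and Abl2, Abl1 and Bcr, Gab2 and Sos1, and Sos1 and Gab1 did not overlap. Bcr went from above both ABL genes by mean in EV lines to below both in BCR-ABL1 lines. These lengths come from all exons of the gene, and the length of the transcript that the cells use was not tested.

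The ratio of a member to its paralog within a line needs no scaling between libraries. It was compared between the conditions for 6 pairs by an exact two-sided permutation test over 924 labelings, with p not adjusted for the 6 pairs. These labelings ignore the mouse, and the p from permuting lines only within mice is given beside. The log2 ratio of Crkl to Crk, an adaptor of the same family, was 0.17 ± 0.15 (SD, n = 6) in EV and -0.15 ± 0.12 in BCR-ABL1 lines. Its conditions did not overlap (exact permutation p = 0.00216, the smallest the 924 labelings allow, within mice 0.005). The log2 ratio of Abl1 to Abl2 was 0.46 ± 0.32 in EV and 0.084 ± 0.11 in BCR-ABL1 lines (exact permutation p = 0.0216, within mice 0.035). The ranges overlapped through the EV line 2C. The difference was -0.67 in the lines of mouse 1 alone and -0.078 in those of mouse 2 alone (exact permutation p = 0.10 and 0.70, where 3 against 3 lines cannot go below 0.10). The ratio of Bcr to Abr, a gene for a related RAC-inactivating protein, was 0.080 ± 0.26 and -0.16 ± 0.21 on the log2 scale (exact permutation p = 0.102, within mice 0.125). Abr itself was called lower, at 87.0 to 131 CPM in the EV lines, against 45.0 to 67.9 CPM in BCR-ABL1 lines (log2 fold change -0.90, edgeR, FDR = 0.0336, with the line pair as a block FDR = 0.0787). The difference of Abr was unlike in the 2 mice (edgeR interaction test, FDR = 0.0395).

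The log2 ratio of Gab2 to Gab1 in the EV lines of mouse 1 has only a lower bound, since Gab1 had 0 to 2 counts there. With these counts raised to the floor of 3 counts it was at least 8.49 to 8.72 in those lines, beside 1.52 to 3.40 in the EV lines of mouse 2 and 2.06 to 2.75 in BCR-ABL1 lines. The conditions did not pass 0.05 without a block (exact permutation p = 0.0584, with or without the floor) and passed when lines were permuted within mice (exact permutation p = 0.035). The Sos1 and Cbl pairs passed in neither way. The log2 ratio of Sos1 to Sos2, the second SOS exchange factor, was 0.036 ± 0.43 and -0.20 ± 0.088 (exact permutation p = 0.193, within mice 0.115), with EV values of 0.30 to 0.57 in mouse 1 and -0.41 to -0.23 in mouse 2. The log2 ratio of Cbl to Cblb, a second CBL ubiquitin ligase, was 0.74 ± 0.39 and 0.65 ± 0.13 (exact permutation p = 0.628, within mice 0.66).

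**Figure D3:**
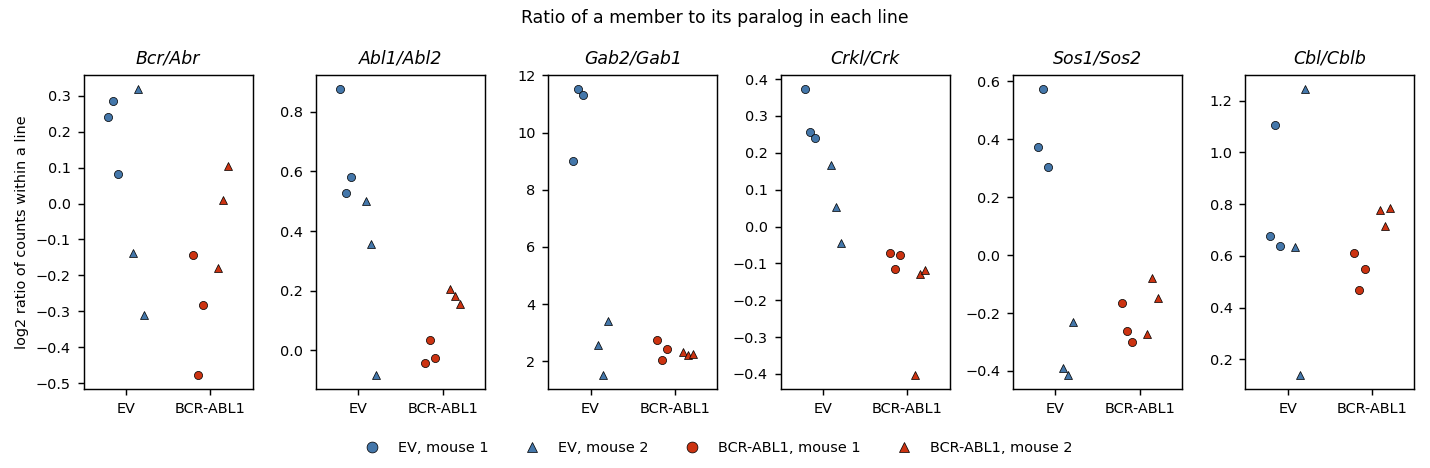
Log2 ratio of the counts of a member to those of its paralog within each line, for 6 pairs, in EV (blue) and BCR-ABL1 (red) lines of mouse 1 (circles) and mouse 2 (triangles), with 0.5 added to each count, so that the values of Gab2 to Gab1 in EV lines of mouse 1 (Gab1 at 0 to 2 counts) are set by that addition. Each panel has its own vertical axis, Crkl to Crk is the pair with no overlap, and the EV lines of mouse 1 stand apart for Gab2 to Gab1.

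A list of 55 other genes of the pathway was examined with the members, from paralogs of the members to adaptors, ABL regulators, phosphatases, RAS regulators and the RAF-MEK-ERK kinases. Of these 49 were tested. Shc2, Shc3, Shc4, Cblc, Grb14 and Bcar1 were filtered out, with at most 20 counts in any line. The list was written with earlier results of these data known, so its counts beside the shares of all genes cannot test the pathway. At 1.5-fold 7 of the 49 were called higher and 4 lower, beside 5.99% and 6.49% of all tested genes. Against no change 16 were higher and 10 lower, beside 22.5% and 25.9% of all. Over the 49 the log2 fold change had a median of 0.0080, beside -0.024 over all genes. The interaction of mouse and condition passed in 16 of the 49, beside 16.9% of all tested genes. The 9 RAS genes and regulators held 1 higher and 2 lower calls, the 13 other adaptors and docking proteins 5 higher and 1 lower, the 10 ABL regulators and substrates 1 higher, the 7 paralogs 1 lower (Abr), and the 3 phosphatases and 7 RAF, MEK and ERK kinases 0 (edgeR, also 0 by unadjusted p).

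Of the adaptors, Grb10, which binds activated receptor tyrosine kinases, stood at 0.0154 to 0.675 CPM in the EV lines, against 4.24 to 12.8 CPM in BCR-ABL1 lines (log2 fold change 5.73, edgeR, FDR = 0.000534). Irs2, the docking protein of the insulin receptor, stood at 0 to 1.61 CPM in the EV lines, against 9.65 to 12.9 CPM in BCR-ABL1 lines (log2 fold change 5.15, edgeR, FDR = 0.0102). With 0 counts of Irs2 in the EV lines 1B and 2C, the size of this fold change depends on the fit, and it was 5.85 with the mouse as a block, 6.57 by limma-trend and 7.06 with the line pair as a block. Grb10 and Irs2 had no overlap between the conditions. Nck2, an SH2 and SH3 adaptor that links receptors to actin, stood at 0.0144 to 0.0941 CPM in the EV lines of mouse 1, 0.667 to 3.06 CPM in those of mouse 2 and 8.82 to 22.7 CPM in BCR-ABL1 lines (log2 fold change 4.05, edgeR, FDR = 0.0179, and 5.01 to 5.31 with either block or by limma-trend). Grb7, a relative of Grb10, stood at 0.0433 to 1.53 CPM in the EV lines, against 2.42 to 9.79 CPM in BCR-ABL1 lines (log2 fold change 3.91, edgeR, FDR = 0.00839). Dok3, an inhibitory adaptor of B cells, fell, from between 119 and 440 CPM in EV lines to between 91.7 and 103 CPM in BCR-ABL1 lines, with the EV line 2C nearest to them (log2 fold change -1.76, edgeR, FDR = 0.00129).

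Abi2, an ABL-binding protein of the actin-regulating WAVE complex, stood at 0.307 to 1.66 CPM in the EV lines, against 21.4 to 31.9 CPM in BCR-ABL1 lines (log2 fold change 4.70, edgeR, FDR = 2.5e-05). The RAS exchange factors Rasgrp1 and Rasgrp3, which respond to diacylglycerol, moved in opposite directions. Rasgrp1 stood at 0.0461 to 0.303 CPM in the EV lines of mouse 1, 7.45 to 9.05 CPM in those of mouse 2 and 38.6 to 89.1 CPM in BCR-ABL1 lines (log2 fold change 3.82, edgeR, FDR = 0.0268, with the line pair as a block FDR = 0.0729, and 4.999 to 5.54 with either block or by limma-trend). Rasgrp3 stood at 2.78 to 2.96 CPM in the EV lines of mouse 1, 7.12 to 15.6 CPM in those of mouse 2 and 0.581 to 1.02 CPM in BCR-ABL1 lines (log2 fold change -2.94, edgeR, FDR = 0.00129). The edgeR interaction test of mouse and condition passed for Rasgrp1 (FDR = 4.6e-06), Rasgrp3 (FDR = 0.00282), Abi2 (FDR = 0.00344), Nck2 (FDR = 0.00551), Irs2 (FDR = 0.0466) and Grb7 (FDR = 0.0498). Their fold changes over all lines thus cover mice that differ. It did not pass for Grb10 (FDR = 0.0784) or Dok3 (FDR = 0.846). In each of these 8 genes, which were picked by the size of a called difference, the lowest level of one condition lay above the highest level of the other. Such a lack of overlap was found in 21 of the 49 tested genes of the list, beside 25.6% of all tested genes. This list was written with earlier results of these data known.

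**Figure D4:**
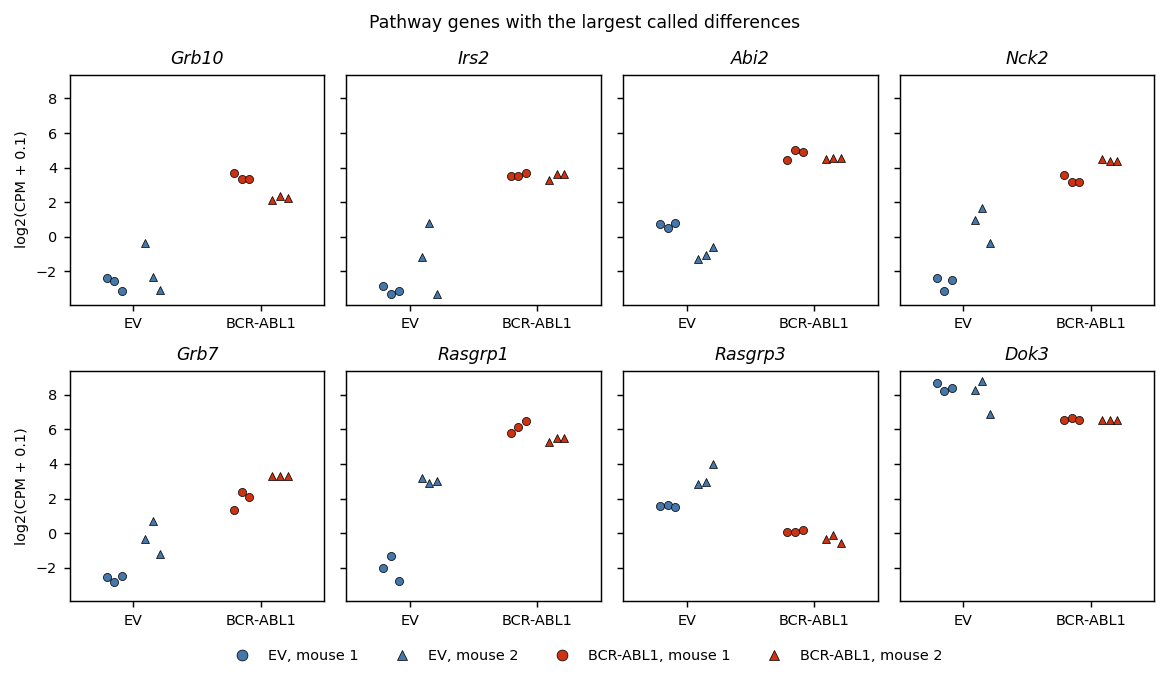
Log2(CPM + 0.1) in each line of the 8 pathway genes with the largest called differences and an average log2 CPM of at least 1. EV lines are blue, BCR-ABL1 lines red, circles lines of mouse 1 and triangles lines of mouse 2, on a shared vertical axis. Rasgrp3 and Dok3 are lower in BCR-ABL1 lines and the other 6 genes higher.

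The genes whose profile over the 12 lines was most like that of Bcr were Ptpra, Syvn1 and Mroh1, with a root mean square difference of centred log2 CPM of 0.11, 0.12 and 0.12. Those most like Abl1 were Scrn3, Chd4 and Ganab, at 0.065, 0.068 and 0.071. For Gab1, which was added to this search after its values were seen, they were Gna15, AU041133 and Zfp229, at 0.48, 0.55 and 0.58. Gna15 stood at 0.116 to 0.154 CPM in the EV lines of mouse 1, 7.90 to 29.6 CPM in those of mouse 2 and 18.3 to 30.8 CPM in BCR-ABL1 lines.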

How the data were processed

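RNA of 12 lines was sequenced by the study on Illumina TruSeq stranded total RNA libraries. The authors deposited whole-number counts of reads per mouse gene, not normalized and with no replicates pooled. The submitters' processing notes name FastQC 0.11.5, Trimmomatic 0.36, TopHat2 2.1.1, Bowtie2 2.3.2, featureCounts 1.5.3, R 3.6.1, edgeR 3.18.1 and the build GRCm38. The strand setting of the counting is not given in the sources used here. The antisense genes Gm13427 and Gm31105 share 94 exon bases with Abl1 and 266 with Gab1 and had at most 6 and 24 counts in a line.

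The re-analysis used edgeR 4.0.16, DESeq2 1.42.0 and limma 3.58.1 under R 4.3.3, with figures drawn by matplotlib 3.10.9 under Python 3.11.15. Symbols, positions and exon lengths came from GENCODE M21, which held 51633 of the 51826 identifiers. Genes were filtered with filterByExpr, scaled by TMM, and tested with glmTreat against 1.5-fold on the quasi-likelihood fit of condition only, with Benjamini-Hochberg adjustment over all tested genes. The study states the fold and FDR. The prior count of log2 CPM was 2, and SEs are those of the difference of mean log2 CPM between 6 and 6 lines. A floor of 3 counts per line covers counting error only. The fits were tested on simulated counts with 200 changed genes, of which the main test recovered 151 and called 0 others. Of 50 genes changed 2-fold it recovered 18. The simulated lines held no effect of the mouse, unlike the lines here. Total counts of 34791011 to 66011225 per line set the precision.

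Groups came from the sample titles, where the digit was taken as the mouse and the letter as the line. The study describes triplicates from 3 independent experiments, and whether the letters stand for these was not tested. Over all genes, an EV and a BCR-ABL1 line deviated from their condition means with a correlation of 0.0853 to 0.240 where they shared a mouse (18 pairs) and of -0.203 to -0.0636 where they did not, so the mouse pairs the lines. The alternatives were RLE size factors, total counts, other gene filters, the likelihood ratio fit, DESeq2, limma-trend, a test against no change, blocks of mouse or line pair, each mouse alone and leaving out each line. The members and lists were chosen with earlier results of these data known. Named are the members, the paralogs of the ratio pairs, at most 8 called pathway genes with the largest fold change with at least 1 as average log2 CPM, and the 3 genes most like Bcr and Abl1 at an average of at least 3. Cd68, Klrb1c and the genes like Gab1 fall outside this rule.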

Additional observations from a re-analysis of the deposited data

Results flagged for a closer look

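In 6 of the 20 groups of 6 lines, 1 line lay far from the others by the gap to its nearest neighbour over the range of the group. Chance gives about 1 in 20 for independent lines, but the lines here come from 2 mice and recur in all groups. The share of all genes with such a line was not computed, so the count does not set the members apart. Bcr was at 39.7 CPM in the BCR-ABL1 line 2A, beside 48.8 to 52.8 CPM in the other BCR-ABL1 lines. Crkl was at 71.1 CPM in the same line, beside 84.4 to 88.2 CPM. Abl1 was at 139 CPM in the EV line 1A, beside 108 to 119 CPM in the other EV lines. Abl2 was at 120 CPM in the EV line 2C, beside 75.5 to 84.4 CPM. In the EV line 1B, Sos1 was at 48.1 CPM beside 35.3 to 40.0 CPM, and Cbl at 111 CPM beside 54.0 to 74.3 CPM.

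The BCR-ABL1 difference was unlike in the lines of the 2 mice for Gab1, by -8.84 on the log2 scale (mouse 2 minus mouse 1, edgeR interaction test, FDR = 5.1e-05), and for Gab2, by -0.64 (edgeR, FDR = 0.0386). The size for Gab1 is uncertain, with 0 to 2 counts in the EV lines of mouse 1.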

How the results depend on the processing

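Bcr kept its direction under all 24 alternatives (log2 fold change -1.27 to -1.09) and its call under 23 of them. The exception was the lines of mouse 2 only, with -1.22 and an edgeR FDR of 0.105. There 0 members were called lower, beside 408 of the 15400 genes tested in those lines. Abl1 stayed between 0.081 and 0.25 with no call. Against no change 1 member was called higher and 3 lower, beside 22.5% and 25.9% of all tested genes. In the lines of mouse 1 only 2 were higher, beside 16.3% of the genes tested in those lines. Of the pathway list, 16 genes were higher and 10 lower against no change, beside the same shares of all genes. In the lines of mouse 2 only, 4 of the list were higher, beside 614 of the 15400 genes tested in those lines.

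With the mouse as replicate block the log2 ratio of Gab2 to Gab1 differed by -4.21 with an exact permutation p of 0.035, and Gab1 gave 2.91 in place of 0.76. With either block Bcr stayed called (-1.17 and -1.14). Signs turned in members with small differences. In the lines of mouse 2 only, Gab1 gave -0.13, Gab2 -0.24, Grb2 0.18 and Shc1 0.083. Gab2 gave -0.022 with total counts. Grb2 gave 0.018 with RLE, 0.041 without a filter, 0.017 with DESeq2, 0.00047 with the line pair as replicate block and 0.00048 with limma-trend.

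With 1 line left out, Gab2 ranged from -0.070 to 0.13 and Grb2 from -0.041 to 0.052. The difference in the log2 ratio of Cbl to Cblb (BCR-ABL1 minus EV) ranged from -0.21 to 0.011, above 0 without the EV line 2C and below 0 without any other line. That of Bcr to Abr ranged from -0.32 to -0.18, with an exact permutation p of 0.0346 without the EV line 2C. In the lines of mouse 1 only and mouse 2 only, it was -0.50 and 0.022, that of Sos1 to Sos2 -0.66 and 0.18, that of Cbl to Cblb -0.26 and 0.085, and that of Abl1 to Abl2 -0.67 and -0.078, so that the first 3 turned sign. That of Gab2 to Gab1 ranged from -5.22 to -3.22, with exact permutation p of 0.0238, 0.00433 and 0.0498 without the EV lines 2A, 2B and 2C. Raising Gab1 to the floor of 3 counts, chosen after seeing the data, gave -3.20 with an exact permutation p of 0.0584. Without the EV line 2C 1353 genes were higher and 1434 lower, beside 901 and 976 with all lines.

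The 2 mice and 3 lines of each limit what the interaction can show, and 3 against 3 lines cannot go below an exact permutation p of 0.10. At these depths Gab1 in the EV lines of mouse 1 is known only to lie at or below the floor of 3 counts. What sets the difference between the EV lines of the mice was not tested.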
